A study of Homo sapiens with 6 samples.

Results

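Transcripts of 9 genes, the matrix metalloproteinases MMP1, MMP2, MMP3, MMP14, MMP15 and MMP24 and the tissue inhibitors of metalloproteinases TIMP1, TIMP2 and TIMP3, were followed in the established hepatocellular carcinoma line SNU449. They were taken by symbol from a table of 60589 genes. The 9 were selected on their transcript levels and on their differences between the groups in the same 6 libraries, so the values of this comparison are a description and carry no test of their own. The groups were SNU449 cells given a control siRNA (siControl, 3 libraries) and SNU449 cells given an siRNA against MAD2L1, which encodes a spindle checkpoint protein (siMAD2L1, 3 libraries), all collected at day 3. Both groups were the same line, grown in DMEM with serum, and no untransfected cells are among the samples. The titles of all 3 knockdown libraries name MAD2L1, but their treatment labels differ, with MAD2L1 in replicate 1, MAD2L2 in replicate 2 and MAD2L3 in replicate 3. The sequence of the siRNA is not given in the sources used here.

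Matrix metalloproteinases (MMPs) are zinc-dependent proteases that cut collagens, laminins, proteoglycans and many cell-surface proteins. They are made as inactive proenzymes in which a cysteine of the propeptide blocks the catalytic zinc, and they work either as secreted enzymes or, in the membrane-type MMPs, anchored to the cell surface. TIMPs bind the active site through their amino-terminal end and block it. In liver, these genes are best known from stellate cells and macrophages during scar formation and its resolution, and from invading carcinoma cells.

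The sequences that make these genes a family are shown first, since they give the parts on which proteases and inhibitors meet. They were read from GENCODE 29 transcripts (GRCh38), 5′ to 3′ on the coding strand. The coding stretch for the zinc-binding helix has 33 bases, and capitals mark the codons of the 3 zinc-binding histidines and of the catalytic glutamate.
MMP1, exon 5, minus strand, chr11:102795549-102795581: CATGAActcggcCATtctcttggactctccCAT
MMP3, exon 5, minus strand, chr11:102840535-102840567: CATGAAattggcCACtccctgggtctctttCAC
MMP2, exon 8, plus strand, chr16:55491827-55491859: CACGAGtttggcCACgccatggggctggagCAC
MMP14, exon 5, plus strand, chr14:22843283-22843315: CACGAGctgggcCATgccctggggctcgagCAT
MMP15, exon 5, plus strand, chr16:58040563-58040595: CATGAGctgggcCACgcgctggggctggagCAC
MMP24, exon 5, plus strand, chr20:35263817-35263849: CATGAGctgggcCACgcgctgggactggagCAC

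All 6 MMPs hold this site once. Against MMP1, the same base stood at 24 of the 33 positions in MMP3, at 23 in MMP14, 22 in MMP24, 21 in MMP15 and 18 in MMP2. The 6 also hold the coding stretch of the cysteine switch of the propeptide once each. Furin-like convertases can cut at the pattern arginine, any residue, lysine or arginine, arginine. Between the switch and the zinc site, this pattern was found 1 time in MMP14, 2 times in MMP15 and 1 time in MMP24. It was found 0 times in the secreted MMP1, MMP2 and MMP3. In MMP15 the matches lie at codons 126 to 129 and 188 to 191. A match describes letters only, and cleavage was not measured. The first of these matches is shown for each membrane-type enzyme, with the codons of the fixed residues in capitals.
MMP14, exon 3, plus strand, chr14:22841977-22841988: CGAaggAAGCGC
MMP15, exon 3, plus strand, chr16:58038330-58038341: CGGcggCGTCGG
MMP24, exon 3, plus strand, chr20:35251954-35251965: CGTaggCGGAGA

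The 3 TIMPs share the stretch of 27 coding bases with which the mature inhibitor begins and which enters the active site of the protease. Capitals mark the codons of the first and the third residue of the stretch, both cysteines.
TIMP1, exon 2, plus strand, chrX:47583485-47583511: TGCaccTGTgtcccaccccacccacag
TIMP2, exon 1, minus strand, chr17:78924984-78925010: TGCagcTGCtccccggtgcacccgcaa
TIMP3, exon 1, plus strand, chr22:32802071-32802097: TGCacaTGCtcgcccagccacccccag

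In siControl cells TIMP1 and TIMP2 stood above every protease, and TIMP3 below them all. On the scale of TPM, which is per transcript length, TIMP1 had the highest level, 399 ± 28.8 (SD, n = 3), followed by TIMP2 with 318 ± 24.3 and MMP1 with 105 ± 8.17. MMP14 (57.3 ± 13.9) and MMP2 (39.3 ± 5.43) came next, and their ranges overlapped. MMP24 (24.1 ± 1.61), MMP15 (7.22 ± 0.798) and MMP3 (0.591 ± 0.194) followed without overlap between neighbours. TIMP3, the inhibitor that binds to the matrix and also blocks ADAM and ADAMTS proteases, was listed at 0 TPM in all 6 libraries. The number of reads behind a TPM is unknown here, so no limit can be set on a level listed at 0.

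**Figure D1:**
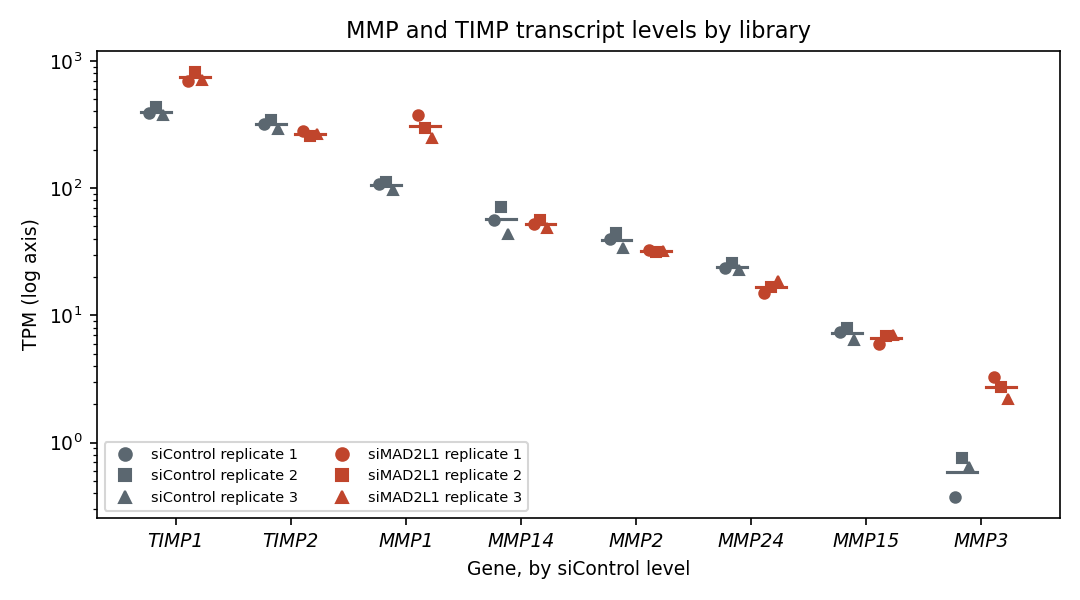
TPM (log axis) of 8 genes in each library, grey for siControl and red for siMAD2L1, with the replicate number as the symbol and the group mean as a line. MMP1, MMP3 and TIMP1 sit higher in all siMAD2L1 libraries, and MMP2, MMP24 and TIMP2 lower. TIMP3, at 0 throughout, is not drawn.

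With siMAD2L1 the interstitial collagenase MMP1, the stromelysin MMP3 and TIMP1 were higher than in siControl in every library. MMP2, MMP24 and TIMP2 were lower in every library. MMP1 then ranked above TIMP2, whose range it overlapped, and the order of the other genes was as in siControl. Of the 8 genes whose TPM averaged at least 1 over the libraries, 3 were called higher and 1 lower in a limma fit over all genes at an adjusted p of 0.05. Over all 14790 genes tested, 9.78% were called, 3.55% higher and 6.23% lower. The groups did not overlap for 6 of the 8, MMP1, MMP2, MMP3, MMP24, TIMP1 and TIMP2, and for 32.8% of all genes tested. Since the genes were chosen with these differences in view, nothing is read from these counts. The median log2 difference of the 8 was -0.11, and that of all genes tested was -0.08.

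Across all genes, the share of lower among called genes was 63.7%, and it was 52.5% with upper-quartile scaling, 50.5% with quantile normalization and 43.9% with a transcript-length trend removed. It was 73.2% after rescaling without mitochondrial and the 20 highest genes, and 66.2% after rescaling over protein-coding genes. All 5 scalings left the sign of the difference of the 8 genes as it was. For MMP14 and MMP15, whose groups overlapped, this says little. With the length trend removed their log2 differences were -0.01 and -0.03, smaller in size than their SE of 0.167 and 0.147 in the main fit. The targeted transcript MAD2L1 stood at 14.5, 13.7 and 13.9 TPM in siControl replicates 1, 2 and 3, against 4.47, 0.795 and 2.40 TPM with siMAD2L1. Mitochondrially encoded genes held 15.2% to 15.3% of the TPM in siControl and 9.21% to 10.9% in siMAD2L1. After rescaling without them and the 20 highest genes, the same 4 of the 8 genes were called, with log2 differences of 1.47 for MMP1, 1.34 for MMP3, 0.85 for TIMP1 and -0.55 for MMP24. Of 10 hepatocyte markers 4 had a mean TPM of at least 1. The sum of all 10 was 17.8 to 23.6 TPM in siControl against 7.99 to 13.8 TPM with siMAD2L1, and the sums below are likewise over all markers of a list. ALB, the albumin gene, reached at most 0.451 TPM, and APOB and TTR were listed at 0. Of 6 epithelial markers 4 met that level, nearly all of it the keratins KRT8 and KRT18, and the sum was 411 to 427 TPM in siControl against 280 to 309 TPM with siMAD2L1. Of 8 fibroblast and stromal markers 4 met it, and the sum was 9265 to 10170 TPM in siControl against 10650 to 11280 TPM with siMAD2L1. VIM, the mesenchymal filament vimentin, made up most of that sum, while COL1A1, a type I collagen chain, lay at 116 to 154 TPM in siControl and at 90.4 to 106 TPM with siMAD2L1, LUM was listed at 0 and DCN, PDGFRA and PDGFRB lay under 1 TPM. Of 7 leukocyte and macrophage markers 3 met it, and the sum was 69.7 to 77.2 TPM in siControl and 129 to 150 TPM in siMAD2L1. Most of it was CD68, at 63.1 to 69.8 TPM and 125 to 144 TPM, whereas CD14 lay lower with siMAD2L1, at 5.24 to 11.3 TPM and 2.90 to 4.43 TPM, and CD3E and CD163 were listed at 0 and PTPRC, the pan-leukocyte marker CD45, reached at most 0.06 TPM. No endothelial marker of 5 reached a mean TPM of 1. The part of these markers in the values below was not tested. In RNA from whole cultures, fewer cells with a transcript and less of it per cell cannot be told apart.

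MMP1 encodes interstitial collagenase, which makes the first cut in fibrillar collagens. It measured 107, 112 and 96.0 TPM in siControl replicates 1, 2 and 3, against 374, 296 and 247 TPM with siMAD2L1. The lowest siMAD2L1 library lay above the highest siControl library. The mean was 2.91 times that of siControl, a log2 difference of 1.51 (SE 0.145) on the log2(TPM + 1) scale. Of the genes tested, 0.669% had a larger absolute difference than MMP1. That share was 1.45% for MMP3, 4.09% for TIMP1 and 18.0% for MMP24. It was 42.0% for MMP2, 48.1% for TIMP2, 73.1% for MMP15 and 75.7% for MMP14. Relative to the siControl mean, the MMP1 difference was 1.82 in siMAD2L1 replicate 1, 1.49 in replicate 2 and 1.23 in replicate 3. Among the 8 genes, MMP1 also had the widest spread in siMAD2L1, with a coefficient of variation of 20.9% against 7.78% in siControl.

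MMP3 encodes stromelysin-1, which cuts many matrix proteins and activates other proMMPs, MMP1 among them. It measured 0.376, 0.753 and 0.644 TPM in siControl and 3.27, 2.72 and 2.20 TPM in siMAD2L1. The groups did not overlap, and replicate 1 was the highest in siMAD2L1, as it was for MMP1. The log2 difference was 1.23 (SE 0.227) on the log2(TPM + 1) scale and 2.06 with a pseudocount of 0.1, the size at this low level being set in large part by the pseudocount. In siControl MMP3 lay under 1 TPM in all 3 libraries, so it met the filter only through siMAD2L1. Its call ended without siControl replicate 1, without siControl replicate 3 and without siMAD2L1 replicate 2, at log2 differences of 1.13, 1.25 and 1.22.

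MMP2 encodes gelatinase A, which cuts denatured collagen and type IV collagen. It measured 40.0, 44.3 and 33.5 TPM in siControl and 32.3, 31.3 and 32.3 TPM in siMAD2L1. The groups lay side by side with a gap between 33.5 and 32.3 TPM. The log2 difference was -0.28 (SE 0.115), and the gene was not called.

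**Figure D2:**
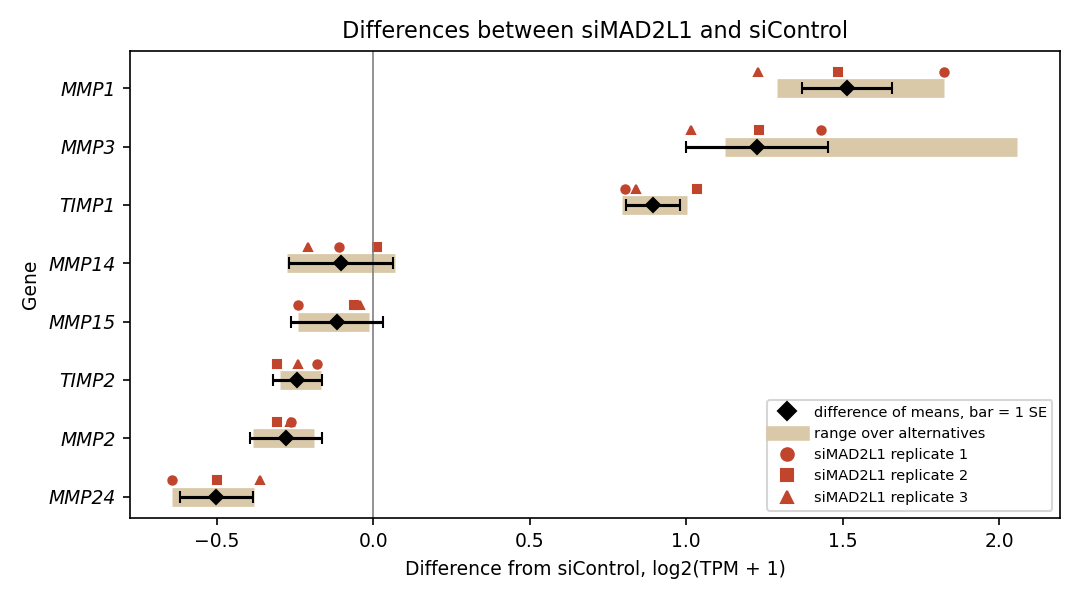
Log2 difference of siMAD2L1 from siControl on the log2(TPM + 1) scale for 8 genes, as the difference of group means with 1 SE (black), for each siMAD2L1 library against the siControl mean (red) and as the range over the alternative analyses (tan bar). MMP1 at 1.51, MMP3 at 1.23 and TIMP1 at 0.89 lie to the right of 0 with all their libraries. MMP24 at -0.50, MMP2 at -0.28, TIMP2 at -0.24 and MMP15 at -0.12 lie to the left with all theirs.

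The membrane-type enzymes among the selected genes did not share the direction of MMP1 and MMP3, and neither did the secreted MMP2. Outside the selected genes, the membrane-anchored MMP17 was higher in every siMAD2L1 library, with means of 2.09 TPM in siControl and 3.02 TPM in siMAD2L1, and was not called. MMP14 encodes MT1-MMP, which cuts collagen at the cell surface and, with TIMP2 as a bridge, activates proMMP2. It measured 56.4, 71.6 and 43.9 TPM in siControl and 52.0, 56.6 and 48.4 TPM in siMAD2L1. All siMAD2L1 libraries lay within the siControl range, and the log2 difference was -0.10 (SE 0.167). Without siControl replicate 2, the highest library, it was 0.07. MMP15, which encodes MT2-MMP, measured 7.34, 7.95 and 6.37 TPM in siControl and 5.93, 6.84 and 6.95 TPM in siMAD2L1, and the groups overlapped (log2 difference -0.12, SE 0.147).

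MMP24 encodes MT5-MMP, known mainly from neural tissue. It measured 23.6, 25.9 and 22.8 TPM in siControl and 15.1, 16.8 and 18.5 TPM in siMAD2L1. The groups did not overlap, and the mean was 69.5% of siControl (log2 difference -0.50, SE 0.116). The call ended in 5 of the 6 fits with a library left out, all but the one without siMAD2L1 replicate 1, at log2 differences from -0.57 to -0.45. It also ended with upper-quartile scaling, quantile normalization or the length trend removed. Exons of MMP24 share 799 of 4414 bases with exons of MMP24OS on the opposite strand. MMP24OS measured 49.3, 56.5 and 41.7 TPM in siControl and 43.1, 49.5 and 44.1 TPM in siMAD2L1, with overlapping groups. Whether reads were counted by strand is not given in the sources used here, so reads from the shared stretch cannot be assigned to either gene with certainty.

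Among the inhibitors, TIMP1 and TIMP2 differed in opposite directions. TIMP1 inhibits most secreted MMPs, MMP1 and MMP3 included, and inhibits membrane-type MMPs poorly. It measured 390, 431 and 376 TPM in siControl and 697, 818 and 714 TPM in siMAD2L1. The groups were far apart, with replicate 2 the highest in siMAD2L1, and the mean was 1.86 times that of siControl (log2 difference 0.89, SE 0.0875). TIMP1 and MMP1 were called in all 21 alternative analyses. TIMP1 lies within the span of SYN1 on the opposite strand and shares 0 exonic bases with it. SYN1 stayed under 1 TPM in all 6 libraries.

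TIMP2 inhibits a wide range of MMPs and is the adaptor through which MMP14 binds proMMP2. It measured 318, 342 and 294 TPM in siControl and 280, 256 and 268 TPM in siMAD2L1. All siMAD2L1 libraries lay below the siControl libraries, by a log2 difference of -0.24 (SE 0.0792), and the gene was not called. The ratio of TIMP1 to TIMP2 was 1.26 ± 0.0262 in siControl against 2.78 ± 0.365 with siMAD2L1 (SD, n = 3 each).

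The 6 selected MMP genes summed to 235, 262 and 203 TPM in siControl and to 482, 410 and 356 TPM in siMAD2L1. Other MMP genes are not in this sum. MMP1 made up 45.2% ± 2.32 of the MMP sum in siControl and 73.0% ± 4.05 in siMAD2L1 (SD, n = 3 each). The 3 membrane-type genes together stood at 88.6 ± 16.2 TPM in siControl against 75.7 ± 3.91 TPM with siMAD2L1 (SD, n = 3 each), and their ranges overlapped. The TIMP genes summed to 708, 774 and 670 TPM in siControl and to 977, 1074 and 982 TPM in siMAD2L1. The ratio of summed TIMP to summed MMP was 3.01, 2.95 and 3.29 in siControl and 2.03, 2.62 and 2.76 in siMAD2L1. Both sums were higher in every siMAD2L1 library, and among the selected genes inhibitor transcripts outnumbered protease transcripts in all 6 libraries. After rescaling without mitochondrial and the 20 highest genes, the mean MMP sum was 312 in siControl and 536 in siMAD2L1, and the mean TIMP sum 957 and 1305. These are transcript ratios, and proteins, secretion and activation were not measured.

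**Figure D3:**
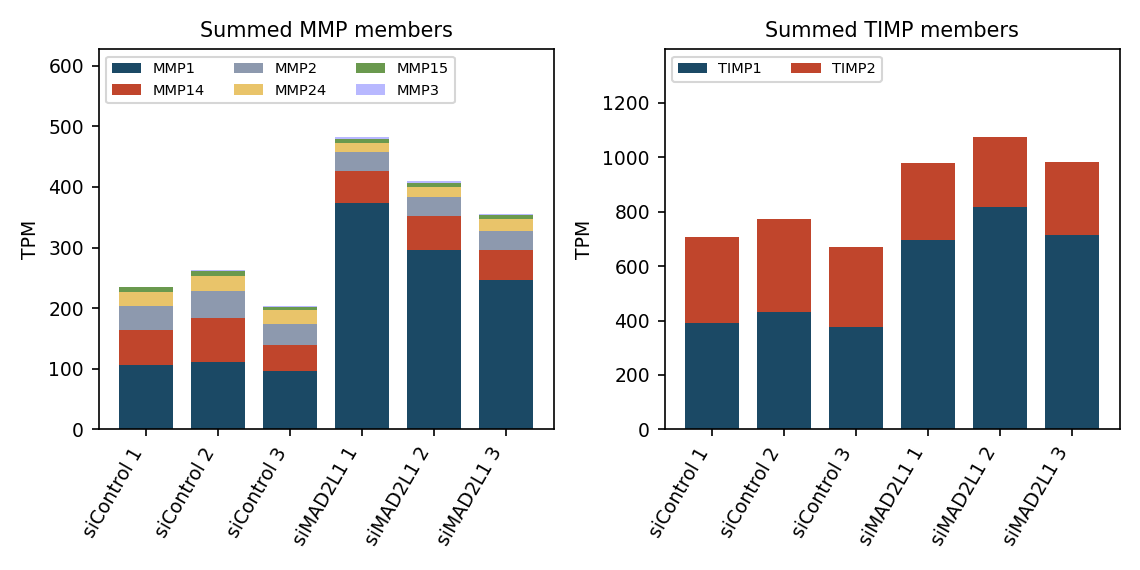
Stacked TPM in each library of the 6 MMP genes (left) and of TIMP1 and TIMP2 (right; TIMP3 was listed at 0). The MMP1 layer grows from 96.0 to 112 TPM in siControl to 247 to 374 TPM in siMAD2L1. The membrane-type genes are drawn as separate layers, and their sum overlaps between groups. The TIMP1 layer, at the base, is thicker in siMAD2L1, and the TIMP2 layer on top of it is thinner.

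MMP1 and MMP3 are neighbours in a cluster of MMP genes on the minus strand of chromosome 11 (GRCh38, MMP1 at 102789920 to 102798160 and MMP3 at 102835801 to 102843803). The rest of the cluster, read from the same table, held low levels. MMP10, stromelysin-2, on one side of MMP1, measured 0.654, 0.740 and 0.851 TPM in siControl and 2.59, 1.94 and 1.498 TPM in siMAD2L1. These groups did not overlap, but MMP10 did not pass the fit (log2 difference 0.77, SE 0.231, limma adjusted p = 0.0765). Like MMP3, it lay under 1 TPM in all siControl libraries and met the filter only through siMAD2L1. MMP13, collagenase-3, at the far end, measured 0.238, 0.175 and 0.111 TPM in siControl and 1.51, 0.304 and 0.549 TPM in siMAD2L1, under the filter of a mean of 1 TPM. MMP7, matrilysin, at the other end, measured 5.27, 5.22 and 4.90 TPM in siControl and 5.02, 5.84 and 3.54 TPM in siMAD2L1, with overlapping groups (log2 difference -0.10, limma adjusted p = 0.782). MMP8 and MMP27 were listed at 0 in all 6 libraries, and MMP12 and MMP20 did not exceed 0.174 TPM. MMP3 shares 59 of its 2047 words of 50 bases with MMP10, and MMP1 shares 56 of 1921 with the opposite-strand pseudogene WTAPP1, which did not exceed 0.163 TPM.

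**Figure D4:**
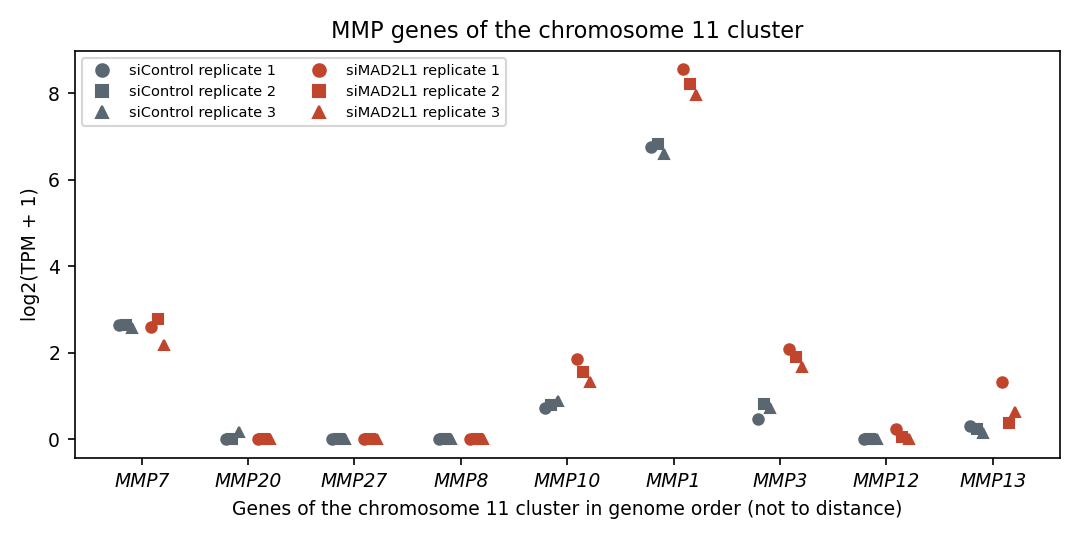
Level on the log2(TPM + 1) scale of 9 MMP genes of the chromosome 11 cluster in genome order (the axis is not to distance), by library. MMP10, MMP1, MMP3 and MMP13 are higher in all siMAD2L1 libraries; MMP7 overlaps between groups and the remaining genes lie near 0.

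The other 17 MMP genes and TIMP4 gave 5 genes that met the filter, and 0 of them were called with limma at an adjusted p of 0.05 (1 had an unadjusted p under 0.05). In this set 1 gene was called higher with quantile normalization, rescaling over protein-coding genes, the length trend removed, limma without a trend or library weights. Beside MMP7 and MMP10 these were MMP11, stromelysin-3 (5.38 ± 1.45 TPM in siControl and 4.52 ± 1.43 TPM in siMAD2L1), the glycosylphosphatidylinositol-anchored MMP17 (2.09 ± 0.268 and 3.02 ± 0.111 TPM) and MMP25 (1.20 ± 0.586 and 0.939 ± 0.433 TPM; SD, n = 3 each). MMP17 did not overlap between groups and did not pass (log2 difference 0.38, limma adjusted p = 0.223). MMP9, gelatinase B, lay between 0.164 and 0.355 TPM in all 6 libraries. TIMP4 was listed at 0.

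Around these genes, 10 lists of proteases, partners, substrates and regulators held 176 further genes, of which 103 were tested. Of the 103, 22 rose and 7 fell (28.2%, against 9.78% of all genes tested). The lists were drawn up with earlier results in view, so nothing is read from that share. Of these 29 calls, 15 held whichever of the 6 libraries was omitted, and 14 were lost in at least 1 such fit. The number called was 15, 16 and 15 without siControl replicate 1, 2 or 3 and 16 without siMAD2L1 replicate 3.

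In the related ADAM family, which includes membrane sheddases, 0 of 6 genes were called with limma (2 had an unadjusted p under 0.05). The highest were ADAM15 (73.3 TPM in siControl against 72.3 TPM with siMAD2L1) and ADAM9 (63.5 and 92.1 TPM). Of 7 genes of the ADAMTS family, which includes secreted proteases of proteoglycans, 2 rose. ADAMTS9 rose from 5.65 to 16.3 TPM (log2 fold change 1.39, SE 0.133, limma adjusted p = 0.00172), and ADAMTS1 from 2.31 to 6.12 TPM (1.11, SE 0.160, adjusted p = 0.00699). Of 2 astacin and pappalysin genes 0 were called (1 had an unadjusted p under 0.05), among them BMP1, the procollagen C-proteinase, at 36.5 and 41.1 TPM and PAPPA at 2.63 and 4.47 TPM. FURIN (23.0 and 23.5 TPM) and PCSK7 (19.8 and 20.4 TPM), convertases that can cut the furin-type sites printed above, were not called either (0 of 2, and 0 at an unadjusted p under 0.05).

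Of 17 partners, clearance receptors and other inhibitors, 4 rose and 2 fell. Only 2 calls, both higher, were made without siControl replicate 1, 2 or 3 or without siMAD2L1 replicate 3. The collagen receptor subunit ITGA2 rose from 17.2 to 45.7 TPM (log2 fold change 1.29, limma adjusted p = 0.0225), ITGB3, a subunit of the vitronectin receptor, from 102 to 252 TPM (1.29, adjusted p = 0.00324) and TFPI2, a serine protease inhibitor of the extracellular matrix, from 109 to 253 TPM (1.19, adjusted p = 0.00160). CAV1, the caveolar protein caveolin-1, fell from 331 to 238 TPM (-0.48, adjusted p = 0.0234). Without siControl replicate 3 the adjusted p of ITGA2 was 0.1002 and that of CAV1 0.101, and both were also lost without siControl replicate 1, siControl replicate 2 or siMAD2L1 replicate 3. The remaining calls, CD63 higher and THBS1 lower, were each lost in 5 of the 6 fits with a library omitted and are named after their values were seen. RECK, a membrane-anchored MMP inhibitor, stood at 7.03 TPM in siControl against 7.16 TPM with siMAD2L1, and BSG, the MMP inducer basigin, 584 and 592 TPM; both are named here after their values were seen.

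Of 6 plasminogen activation genes, whose product plasmin cleaves proMMP1 and proMMP3, 2 rose and 1 fell. The urokinase receptor gene PLAUR rose from 174 to 288 TPM (log2 fold change 0.73). PLAU, urokinase itself, fell from 169 to 103 TPM (-0.72). The limma adjusted p-values were 0.00207 and 0.00430, and both calls held whichever library was omitted.

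Of 21 matrix substrates, 2 rose and 2 fell, and without siMAD2L1 replicate 1, 2 rose and 5 fell. The laminin chain LAMB3 rose from 17.1 to 34.2 TPM (log2 fold change 0.96, limma adjusted p = 0.00324) and the basement membrane linker NID1 from 44.1 to 62.3 TPM (0.49, adjusted p = 0.0278, and 0.105 without siControl replicate 3). COL1A2, a chain of the type I collagen that MMP1 cuts, fell from 389 to 232 TPM (-0.74, adjusted p = 0.00187), and the proteoglycan gene BGN from 106 to 66.2 TPM (-0.67, adjusted p = 0.00691). NID1 was also lost without siControl replicate 1, siControl replicate 2 or siMAD2L1 replicate 3.

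Of 24 transcription factors known at MMP and TIMP promoters, 8 rose and 2 fell; without siControl replicate 1, 2 or 3, siMAD2L1 replicate 2 or siMAD2L1 replicate 3, the number called was 2, 3, 2, 5 and 3. ATF3 rose from 18.0 to 37.6 TPM (log2 fold change 1.01, limma adjusted p = 0.00668), EGR1 from 2.68 to 6.02 TPM (0.93, adjusted p = 0.0142) and JUN, a subunit of the AP-1 factor, from 145 to 231 TPM (0.67, adjusted p = 0.00340). ETV1, an ETS factor, fell from 10.04 to 4.57 TPM (-1.04, adjusted p = 0.0359). EGR1 was lost without any one of the 3 siControl libraries (adjusted p up to 0.0672, without replicate 3), and ETV1 in every such fit but the one without siMAD2L1 replicate 1 (up to 0.138, without siControl replicate 1). Of 13 ligands known to induce MMPs, 4 rose, IL1B (1.61), IL6 (1.29), LIF (0.83) and HBEGF (0.52), with limma adjusted p-values of 0.00258, 0.00136, 0.00211 and 0.0396. HBEGF was lost in every fit with a library left out but the one without siMAD2L1 replicate 1, with an adjusted p of up to 0.156 without siControl replicate 1.

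**Figure D5:**
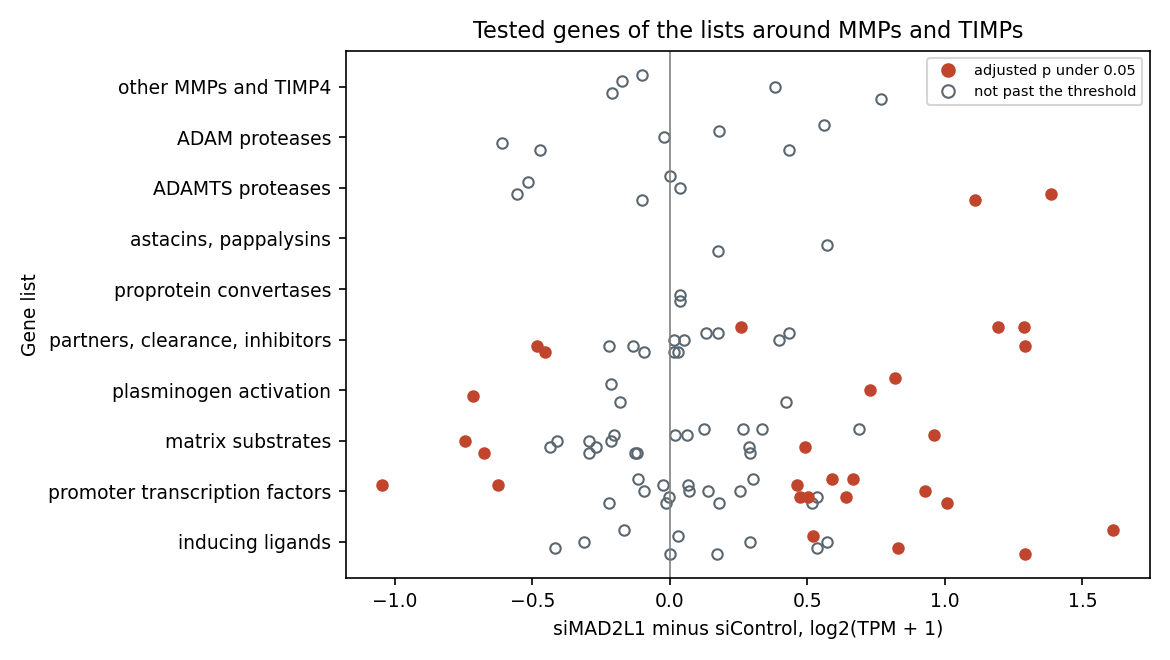
Log2 difference of siMAD2L1 from siControl on the log2(TPM + 1) scale for each tested gene of 10 lists, 1 point a gene, filled where the limma adjusted p was under 0.05. Of 103 genes 22 are filled to the right of 0 and 7 to the left; the list of other MMPs has 0 filled points.

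Promoter sequence, from 250 bases before to 50 after the start of each gene (RefSeq, GRCh38.p14), was at hand for 5 of the 9 genes, TIMP1, TIMP3, MMP14, MMP15 and MMP24. It was searched on both strands for the AP-1 motif TGANTCA, the AP-1 variant TGAGTAA, the PEA3 motif AGGAAG of ETS factors, the GC box GGGCGG and TATAAA. TIMP1 held 0 matches to TGANTCA, 1 to TGAGTAA and 1 to AGGAAG, the last 2 lying 101 and 87 bases before the RefSeq start. The TIMP1 gene of GENCODE 29, used for the other positions, begins at 47582313, so both matches lie inside its span. Of all 35116 promoters in the table, 7.71% held TGANTCA, 2.57% TGAGTAA and 33.6% AGGAAG. MMP14, MMP15, MMP24 and TIMP3 held none of these 3 motifs, and all 5 held at least 1 GC box, as did 44.95% of promoters. None of the 5 held TATAAA, which 11.5% did. A match describes letters only, and binding was not measured. The 30 bases around both TIMP1 matches, plus strand of chromosome X, chrX:47582332-47582361, have the motifs in capitals.
TIMP1: ggaTGAGTAAtgcatccAGGAAGcctggag

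By Pearson correlation of log2(TPM + 1) over the 6 libraries, among 7415 genes whose TPM averaged at least 10, the genes most like MMP1 were CCL20 (0.9996), IGFBP3 (0.999) and ANXA5 (0.997). Those most like TIMP1 were IER3 (0.999), IL32 (0.998) and ANG (0.997), and those most like MMP3 were MTMR11 (0.995), ZFP36 (0.993) and TMEM183A (0.993). MMP24 was most like SH2B1 (0.9996), DNAJC11 (0.997) and EPHB4 (0.997), and TIMP2 most like DNASE1L1 (0.999), BCL3 (0.994) and SRGAP2 (0.990). MMP2 was most like CSNK1G2 (0.997), MMP14 most like SORBS3 (0.977) and MMP15 most like INO80E (0.985). The difference between the 2 groups enters each of these values, and with 6 libraries and 7415 genes the highest correlations are high by selection, so they describe the pattern and carry no test.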

How the data were processed

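RNA from SNU449 cells was sequenced in 6 libraries, 3 per group, grouped by their titles. The submitters' processing notes name fastp, HISAT2, DESeq2 1.16.1 and hg38; of the read counter, its annotation and strand setting, nothing is stated there. The deposited values are TPM, 1 column per library, each summing to 1000000, so sequencing depth cannot be read from them and counting error is not shown. Columns named for a negative control were read as siControl.

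The test, of siMAD2L1 against siControl without covariates, used log2(TPM + 1) of the 14790 genes averaging 1 TPM or more. It was run in limma 3.58.1 (R 4.3.3) with a variance trend on mean level, with Benjamini-Hochberg adjustment over all genes tested and calls at 0.05. A log2 difference is a difference of group means on that scale and understates the change of low genes. The fit was tested on simulated data. The labels do not say whether libraries came from separate cultures, so the spread behind each p-value may be technical. The genes, the 10 lists and the 21 alternatives were chosen with earlier results of these data known; no list or test is independent of them. Named genes were the 9 genes, MAD2L1, other MMPs that met the filter, up to 4 called genes per list with the largest change or else the 2 highest, overlapping neighbours, and for each gene tested the 3 most correlated genes, fewer of which are printed for 3 genes. MMPs of the chromosome 11 cluster, MMP9, MMP21, TIMP4, WTAPP1 and the markers are named outside this rule. Some genes of the lists are counted but not reported by name here. Positions and coding sequence came from GENCODE 29, which held 57974 of 60232 Ensembl identifiers; promoters came from RefSeq. Python 3.11.15 with matplotlib 3.10.9 was used for sequences and plots.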

Additional observations from a re-analysis of the deposited data

How the results depend on the processing

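MMP1 and TIMP1 were called in all 21 alternatives, with log2 differences of 1.29 to 1.82 and 0.80 to 1.00. MMP3 was called in 13 of 20 (it fell under a filter of 5 TPM), and MMP24 in 9 of 21. MMP14 changed sign in 1 alternative, and the other 7 genes in none. MMP2 and TIMP2 were called only with library weights. The number called among the 8 was 4, and 2 with no filter, with a replicate block or at an adjusted p of 0.01, and 2 to 4 with a library left out. Correlations of same-numbered deviations from the group means were 0.02, 0.01 and 0.06, against -0.05 to 0.03 for the other pairs of libraries. With 3 libraries per group, these values cannot show whether the replicate numbers pair the libraries. Over all genes 1446 were called, and 727 with no filter, 952 without a trend, 4860 with library weights, 868 with a replicate block, 359 at an adjusted p of 0.01, and 326 to 2422 when 1 library was omitted, lowest when siControl replicate 1 was and highest when siMAD2L1 replicate 1 was; each of the 6 omissions moved it by over 1.5 times. Of the genes of the 10 lists 29 were called, and 17 with no filter, 17 without a trend, 52 with library weights, 15 at an adjusted p of 0.01, and 15 to 37 with a library left out. With siMAD2L1 replicate 1 alone against siControl, the number called over all genes was 1228, with 45.2% lower; that lone library is assumed to vary like the controls. With no filter, 30457 genes were tested. The cause of this and of the other shifts in the numbers called was not tested.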

Other observations

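A short antisense gene inside TIMP2, AC022966.1, has all of its 367 exonic bases within TIMP2 exons on the opposite strand. It was listed at 0, 0 and 66.9 TPM in siControl replicates 1, 2 and 3 and at 37.5, 0 and 56.0 TPM in siMAD2L1 replicates 1, 2 and 3, with libraries at 0 in both groups. TIMP2 itself measured 294 TPM in siControl replicate 3, the lowest of its group, and 256 TPM in siMAD2L1 replicate 2, the lowest of all. Words of 50 bases shared with other genes made up 8.29% of those of TIMP2 and 18.7% of those of MMP24, and 0% for MMP14, MMP15, TIMP1 and TIMP3. MMP21 was listed at 0 in all siMAD2L1 libraries and at 0.310, 0.651 and 0.211 TPM in siControl, under the filter. Fewer genes lay above 0 TPM in every siMAD2L1 library (22514 to 23630) than in every siControl library (24056 to 24258). The part of this in the MMP21 values was not tested.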
